A study of Mus musculus with 6 samples.

Results

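Lipid efflux and LXR target genes were followed here as a group of 9 named genes out of the 54532 genes in each deposited file: Abca1, Abcg1, Abca7, Apoe, Lpl, Npc2, Nr1h3, Srebf1 and Mylip. The group was given as a list of symbols, and all 9 were found by their Ensembl identifiers in the GENCODE M21 annotation (GRCm38). RNA of sorted mouse cells was sequenced in 6 libraries, 1 per condition. The macrophage libraries came from WT mice (C57BL/6 given PBS and no leukemia), WT/FE mice (C57BL/6 given iron dextran), MA9 mice (C57BL/6 carrying transplanted leukemia cells and given PBS) and MA9/FE mice (transplanted and given iron dextran). The leukemia cell libraries came from MA9 and MA9/FE mice. By the study's methods, the transplanted cells are GFP+ and carry the fusion gene MLL-AF9 on a retrovirus, the mice were young adults, and iron dextran was injected repeatedly into the peritoneum, with the same volume of PBS in the controls. The labels give no age and do not say how many mice went into a library. The model thus has the fusion gene in the transplanted cells alone, and the iron is a load given by injection.

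With 1 library per condition no difference between a pair of libraries has a replicate check. The intervals below are exact 95% intervals that cover counting error and nothing else. Values are FPKM, fragments per kilobase of exon relative to all those counted in a library, so the levels of different genes can be set side by side per length. Multiplied by exon length, the values fell on whole multiples of 1 read, and the size of that step gave depths between 16085344 and 19518358 reads in a library. Fold changes are given as log2 of FPKM + 1, or as plain ratios, both after TMM scaling of the pair, and a gene was called where the fold on the log2 scale reached 2 (a value of 1) with at least 10 reads in one of the pair. Macrophages were labelled as spleen, whereas the methods describe sorted macrophages of the BM, and this conflict was not resolved.

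The cell labels were checked against marker genes before the members were read. The 9 macrophage markers, Adgre1, Csf1r, Cd68, Cd14 and C1qa among them, summed to 359 to 855 FPKM in the macrophage libraries, and to 231 and 247 FPKM in leukemia cells, with none at 0. These markers did not all go the same way. In MA9 mice 6 were lower and 3 higher in leukemia cells than in macrophages, with Cd14 called higher. In MA9/FE mice 7 were lower and 2 higher. The 5 B cell markers, Ms4a1, Cd79a, Cd79b and Pax5 among them, summed to 1006 to 1835 FPKM in macrophages, and to 18.1 and 19.1 FPKM in leukemia cells. The 3 plasma cell markers summed to 615 to 1716 FPKM in macrophages and to 3.72 and 5.63 FPKM in leukemia cells, so transcripts of more than 1 other lineage were abundant in the macrophage libraries. The 7 neutrophil markers summed to 4.15 to 5.73 FPKM in WT and WT/FE macrophages, to 1835 and 929 FPKM in MA9 and MA9/FE macrophages, and to 5200 and 4093 FPKM in leukemia cells. Hoxa9, a homeobox gene switched on by MLL fusions, was at 40.6 and 41.0 FPKM in leukemia cells and at 0.791 FPKM or less in macrophages. It is 1 of 4 listed markers of MLL-AF9 leukemia, and these did not all go the same way. Hoxa9, Hoxa10 and Meis1 were called higher in leukemia cells than in macrophages in both MA9 and MA9/FE mice. Kit was called lower in leukemia cells in MA9 mice, and was lower without being called in MA9/FE mice. In RNA of such mixtures, fewer cells of a type and less RNA per cell cannot be told apart.

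Cells cannot break down the sterol ring, so a macrophage that takes up dead cells, such as aged red cells, passes the cholesterol on. Oxysterols made from surplus cholesterol bind the liver X receptors, LXRα (encoded by Nr1h3) and LXRβ (encoded by Nr1h2), which pair with RXR and turn on the export machinery. Abca1 and Abcg1 encode transporters that load cholesterol onto apolipoprotein A-I and onto HDL, and Apoe encodes the apolipoprotein that accepts and carries it. Mylip (also called IDOL) encodes a ubiquitin ligase that limits the uptake of lipoproteins, Srebf1 the factor that drives fatty acid synthesis, and Lpl the lipase that frees fatty acids from lipoproteins. Npc2 encodes the carrier that hands cholesterol to NPC1 in the lysosome. Abca7 is a relative of Abca1 that is known for phagocytosis and, in contrast to Abca1, for repression rather than induction when cells hold surplus sterol.

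Sequence upstream of the genes was read for the element that the receptor pair binds, since LXR targets are part of the group's name. RefSeq promoter windows (GRCm38.p6, 250 bases before to 50 after a start) were given for 7 of the 9 members, as 12 windows, and Abcg1 and Lpl had none. The letters searched first were 2 copies of AGGTCA with 4 bases between them, on both strands, with up to 1 mismatch in each copy. No member window held this pattern, against 1.75% of all 32851 windows. A second search, chosen after the letters upstream of Abca1 had been read, was for 2 copies of GGTNA with 5 bases between them on either strand, which can overlap the first pattern. It was met in 2 of the 12 member windows, those of Abca1 and Srebf1, and in 0.718% of all windows. The Abca1 match was fixed by the choice of the pattern, and several windows belong to the same gene. The count for the members can therefore not be compared with the share of all windows. The stretches around both matches are shown because they are nearly alike in separate genes, with the cores in capitals, 5′ to 3′ along the gene's strand (the minus strand), so that the cores are read in reverse.
Abca1, chr4:53159942-53159968: agcgttTGACCggtagTAACCccggcg
Srebf1, chr11:60210633-60210659: cgacagTGACCgccagTAACCccagcg
The Abca1 match lies at -67 to -53 from its start, and the Srebf1 match at -182 to -168 from the most downstream of its 3 listed starts. The window of Abca1 also held an E-box, CACGTG, as did 7.15% of windows. These matches are descriptions of the letters, and no binding was measured.

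Levels of the members ran from 0.861 to 453 FPKM in macrophages, and the genes fell into 2 patterns when leukemia cells were set beside them. Abca1, Abcg1, Apoe, Nr1h3 and Mylip were each higher in all 4 macrophage libraries than in both leukemia cell libraries. Abca7, Lpl, Npc2 and Srebf1 were each higher in both leukemia cell libraries than in all 4 macrophage libraries. Differences between these cells were common, as 43.5% of 16042 genes passed the limma fit between them in MA9 and MA9/FE mice. The share of all genes split this way over the 6 libraries was not counted. Within macrophages, Apoe varied most (highest over lowest library 3.02) and Srebf1 least (1.17).

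**Figure D1:**
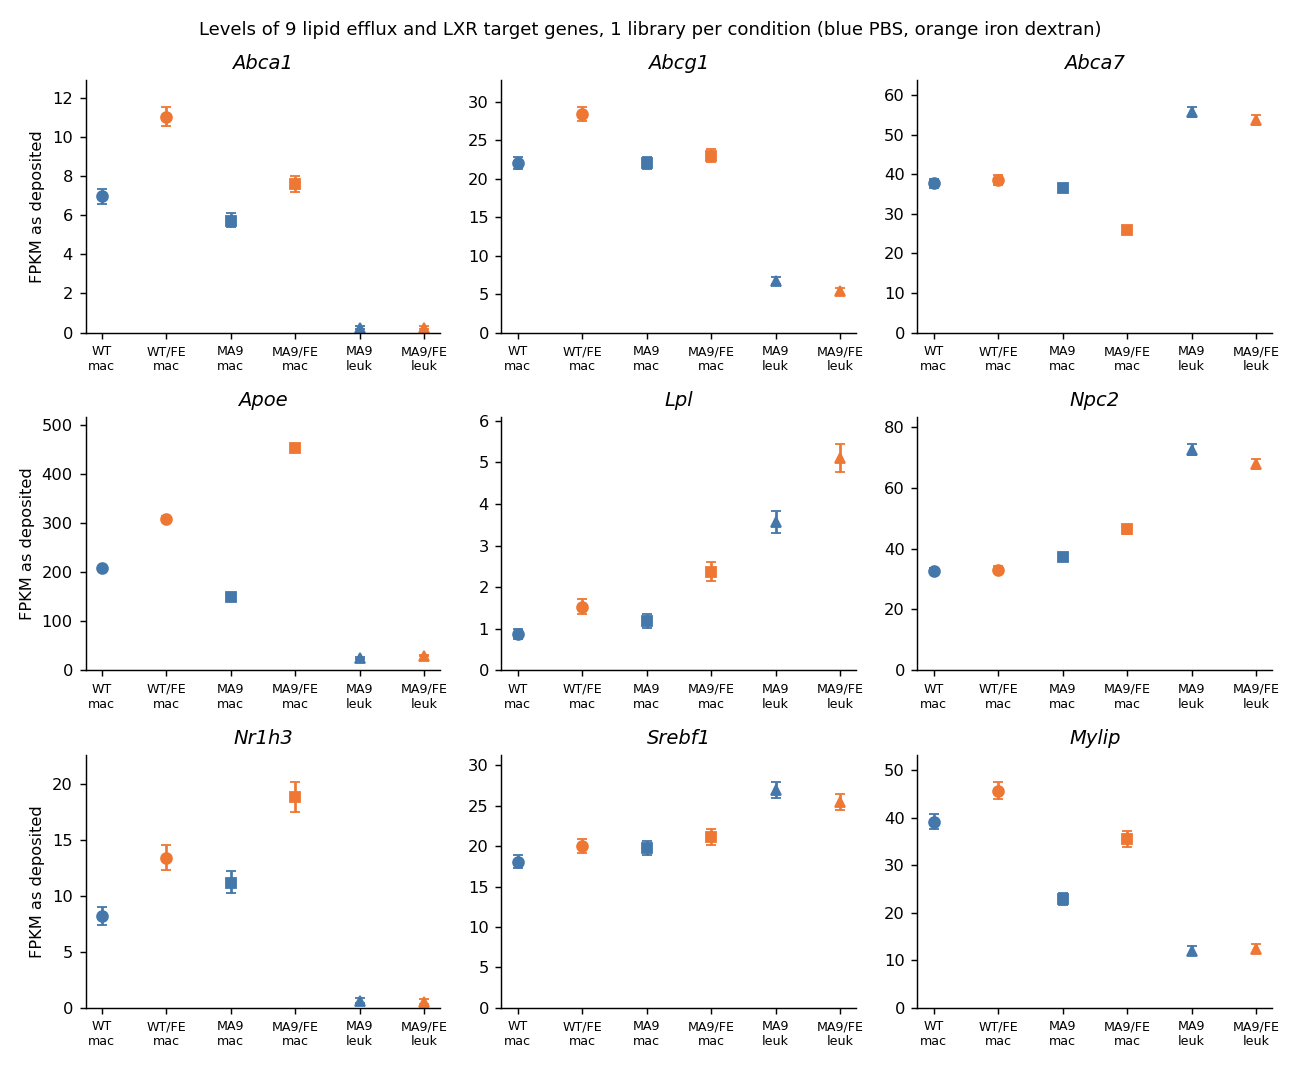
Level of each of the 9 members in FPKM (vertical axes, linear, starting at 0) in the 6 libraries (horizontal axes; mac, macrophages; leuk, leukemia cells), with bars for the exact 95% counting interval and no replicate. Abca1, Abcg1, Apoe, Nr1h3 and Mylip are lowest in the leukemia cell libraries, the other 4 genes are highest there, and Apoe reaches 453 FPKM in MA9/FE macrophages against 150.0 FPKM in MA9 macrophages.

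Among the transporters, Abca1 (chromosome 4, 53030787 to 53159895, minus strand, exons of 10363 bases) was at 6.96 FPKM in WT and 11.03 in WT/FE macrophages, at 5.73 FPKM in MA9 and 7.58 FPKM in MA9/FE macrophages, and at 0.239 and 0.232 FPKM in MA9 and MA9/FE leukemia cells. WT/FE macrophages thus stood highest, the counting intervals of MA9/FE and WT macrophages overlapped, and leukemia cells had 45 and 43 reads against 1009 or more in each macrophage library. Abcg1 (chromosome 17, 31057675 to 31117988, plus strand) was at 22.06 and 28.4 FPKM in WT and WT/FE macrophages, at 22.02 and 23.01 FPKM in MA9 and MA9/FE macrophages, and at 6.75 and 5.37 FPKM in leukemia cells. WT/FE stood highest for Abcg1, while the intervals of the levels overlapped among the other macrophage libraries, and its reads are approximate because its FPKM were not whole multiples of a read. Abca7 (chromosome 10, 79996494 to 80015572, plus strand) was at 37.7, 38.6, 36.6 and 26.0 FPKM in the same macrophages and at 55.7 and 53.7 FPKM in leukemia cells. MA9/FE macrophages were the low library for Abca7, whereas MA9 macrophages were the low macrophage library for Abca1.

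For the genes of lipid carriage, Apoe (chromosome 7, 19696109 to 19699188, minus strand) was the most abundant member in every macrophage library, at 208.1 FPKM in WT, 308 in WT/FE, 150.0 with leukemia alone and 453 in MA9/FE, and it was at 24.8 and 29.5 FPKM in leukemia cells. No counting interval of Apoe overlapped that of the library next in order. Lpl (chromosome 8, 68880491 to 68907448, plus strand) was the least abundant member in macrophages, at 0.861, 1.52, 1.18 and 2.37 FPKM (176, 267, 210 and 399 reads), and stood at 3.56 and 5.10 FPKM in leukemia cells. Both iron libraries of macrophages lay above both PBS libraries for Lpl and for Apoe, though for Lpl the intervals of WT/FE and MA9 macrophages overlapped. The same order held for Nr1h3, and, with an overlap between an iron and a PBS library, for Abca1, Abcg1 and Srebf1. The share of all genes in this order was not counted. Npc2 (chromosome 12, 84754562 to 84773152, minus strand) was at 32.6, 33.0, 37.3 and 46.3 FPKM in macrophages and at 72.6 and 67.8 FPKM in leukemia cells. Its exon length counts all annotated isoforms together (5438 bases), which lowers its FPKM against genes with a single short transcript.

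For the regulators, Nr1h3 (chromosome 2, 91184061 to 91202834, minus strand) was at 8.21 FPKM in WT and 13.4 FPKM in WT/FE macrophages, and at 11.2 FPKM in MA9 and 18.8 FPKM in MA9/FE macrophages, from 403, 567, 479 and 761 reads, and at 0.591 and 0.535 FPKM in leukemia cells, from 27 and 24 reads. Nr1h2, the other LXR gene, was by contrast at 41.25 to 48.2 FPKM in macrophages and at 58.9 and 55.7 FPKM in leukemia cells, with the leukemia cells at the top of its range. Srebf1 (chromosome 11, 60199089 to 60222581, minus strand) was at 18.05, 20, 19.72 and 21.11 FPKM in macrophages and at 26.9 and 25.5 FPKM in leukemia cells. Mylip (chromosome 13, 45389742 to 45412022, plus strand) was at 39.1, 45.7, 22.8 and 35.5 FPKM in macrophages and at 11.98 and 12.39 FPKM in leukemia cells. MA9 macrophages were the low macrophage library for Mylip, as they were for Abca1 and Apoe. A small part of the exons of Nr1h3 (34 bases, with Gm13783) and of Srebf1 (109 bases with Rai1 on the opposite strand and 66 with Mir6922) is shared with another gene, and the use of strand in counting is not given in the sources used here.

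Iron in mice without leukemia was addressed by WT/FE against WT macrophages, with 1 library each. All 9 members were higher with iron, and none reached the fold of 2, where 0.691% of the 16487 genes were called higher and 0.534% lower (114 and 88 genes, or 146 and 71 once the trend on exon length was removed). Their median log2 fold change was 0.34, against -0.01 over all genes. Nr1h3 was 1.63 times higher (counting interval 1.43 to 1.85), Abca1 1.58 times (1.47 to 1.69) and Lpl 1.75 times (1.45 to 2.13). Apoe was 1.47 times higher (1.43 to 1.52), Abcg1 1.28 times (1.22 to 1.34), Mylip 1.16 times (1.10 to 1.23) and Srebf1 1.10 times (1.04 to 1.18). For Abca7 (ratio 1.02, 0.977 to 1.06) and Npc2 (1.01, 0.961 to 1.06) the interval included 1.

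In mice with leukemia, MA9/FE macrophages were set against MA9 macrophages. Apoe was the one member called, at 3.09 times the level of MA9 macrophages (3 to 3.19, log2 fold change 1.62), where 1.17% of 16206 genes were called higher and 1.23% lower (189 and 200 genes, or 114 and 294 with the trend on exon length removed). In all, 8 of the 9 members were higher with iron and Abca7 was lower, at a ratio of 0.730 (0.696 to 0.766), and no interval included 1. Lpl had a ratio of 2.06 (1.74 to 2.45), yet its log2 fold change was 0.65, because a pseudocount of 1 weighs on a gene near 1 FPKM. Nr1h3 was 1.72 times higher (1.53 to 1.93), Mylip 1.596 times (1.48 to 1.72), Abca1 1.36 times (1.25 to 1.47) and Npc2 1.27 times (1.22 to 1.33). Srebf1 (1.10, 1.03 to 1.17) and Abcg1 (1.07, 1.02 to 1.13) moved least. With the trend on exon length removed, the log2 fold change of Abcg1 went from 0.10 to 0.18. The median was 0.38, against 0.01 over all genes.

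**Figure D2:**
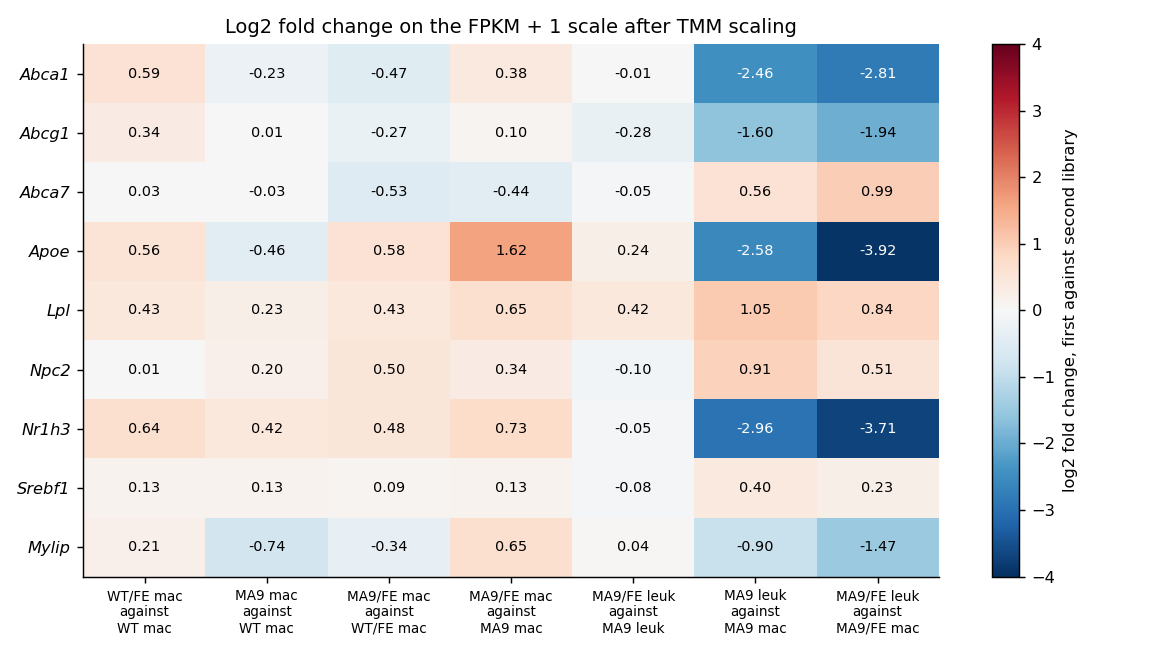
Log2 fold change on the FPKM + 1 scale after TMM scaling for the 9 members (rows) in 7 comparisons of 2 libraries (columns; first library against second), with the color scale from -4 to 4. Iron in macrophages gives small positive values apart from Apoe at 1.62 and Abca7 at -0.44 in MA9 mice, and the comparisons of cell types give the largest values, down to -3.92 for Apoe.

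Macrophage markers were higher with iron in both comparisons, as were the members other than Abca7 in MA9 mice. All 9 markers were higher in WT/FE than in WT macrophages (median log2 fold change 0.97), with Mertk among those called, and with leukemia all 9 were again higher under iron (MA9/FE against MA9, median 1.10), with Cd14, C1qa, C1qb and C1qc among those called. C1qa, a subunit of complement C1q made by tissue macrophages, was at 67.7 FPKM in WT and 137 in WT/FE macrophages, and at 62.8 and 223 in the macrophages of MA9 and MA9/FE mice, the order of libraries also seen for Apoe. The 5 red pulp macrophage markers summed to 74.8 and 77.6 FPKM in the PBS libraries and to 126 and 131 FPKM in the iron libraries. Every member had a lower log2 fold change than the marker median in both comparisons, with Apoe in MA9 mice as the exception. B cell markers had medians of -0.11 in WT and 0.59 in MA9 mice, and neutrophil markers were lower with iron in MA9 mice (7 of 7, median -0.94). Erythroid markers were higher with iron in both, 6 of 6 with a median of 0.88 in WT (85.7 to 198 FPKM summed) and 6 of 6 with a median of 0.95 in MA9 mice (234 to 476 FPKM), and T cell markers had medians of -0.20 and 0.85. The part of these shifts in the members' values was not tested.

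Fitted over the 4 macrophage libraries with iron and leukemia as additive terms, limma passed none of the 9 members for iron at an adjusted p of 0.05, where 0.263% of 15989 genes passed. At an unadjusted p under 0.05 there were 4 members (Nr1h3, Lpl, Apoe and Abca1) and 805 genes in all. Nr1h3 came nearest, with a log2 difference of 0.68 ± 0.19 (SE) and a limma adjusted p of 0.295, followed by Lpl (0.53 ± 0.19, adjusted p = 0.658) and Apoe (1.08 ± 0.42, adjusted p = 0.764). The residual of this fit holds the interaction and the difference between mice, so it is no spread of replicates. Over all 6 libraries, with the source of cells as a term, 0% of genes and 0 of 9 members passed for iron in limma, and 589 genes, Lpl and Apoe among them, had an unadjusted p under 0.05. Lpl was higher with iron in 3 of 3 pairs of libraries in that fit (0.49 ± 0.12, limma adjusted p = 0.992). Apoe and Mylip were also higher in each pair, though for Mylip in leukemia cells the counting interval of the ratio included 1 (0.930 to 1.15). The share of all genes higher in every pair was not counted.

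Other genes of the pathway were counted from fixed lists. Of 14 other LXR target genes, 10 were kept in the iron comparisons of macrophages, and 9 of these were higher in WT/FE (median 0.22) but only 5 in MA9/FE (median 0.17). Cd5l, a secreted macrophage protein that is an LXR target, was called in both, at 17.8 FPKM in WT and 44.1 in WT/FE macrophages, and at 32.5 and 81.6 FPKM in those of MA9 and MA9/FE mice. It passed limma for iron and for leukemia, whereas no other gene of that list did. Without a minimum of reads limma passed 0 genes for iron, so that the iron call of Cd5l is lost, and 1 gene for leukemia. Mertk, a receptor for dying cells that also stands in the macrophage list, was called in WT/FE (8.38 to 20.04 FPKM), and Apoc1, which lies next to Apoe in the genome, was called in MA9/FE (1.502 to 4.93 FPKM). Scd1, the desaturase that LXR and SREBP1 both drive, was at 95.3 and 109 FPKM in WT and WT/FE, and at 64.8 and 81.2 FPKM in MA9 and MA9/FE macrophages, and was not called.

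The sterol synthesis side is run by SREBP2, which is active when cell cholesterol is low, while LXR is active when it is high. Of 23 such genes 22 were kept, and 19 were lower in WT/FE than in WT macrophages (median -0.18) and 15 lower in MA9/FE than in MA9 macrophages (median -0.11). None of the 22 was called in either comparison and none passed limma for iron. The medians thus lay below those of all genes (-0.01 and 0.01), while the members' medians lay above. Those of the macrophage markers lay higher still (0.97 and 1.10). The cause of these differences between lists was not tested.

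**Figure D3:**
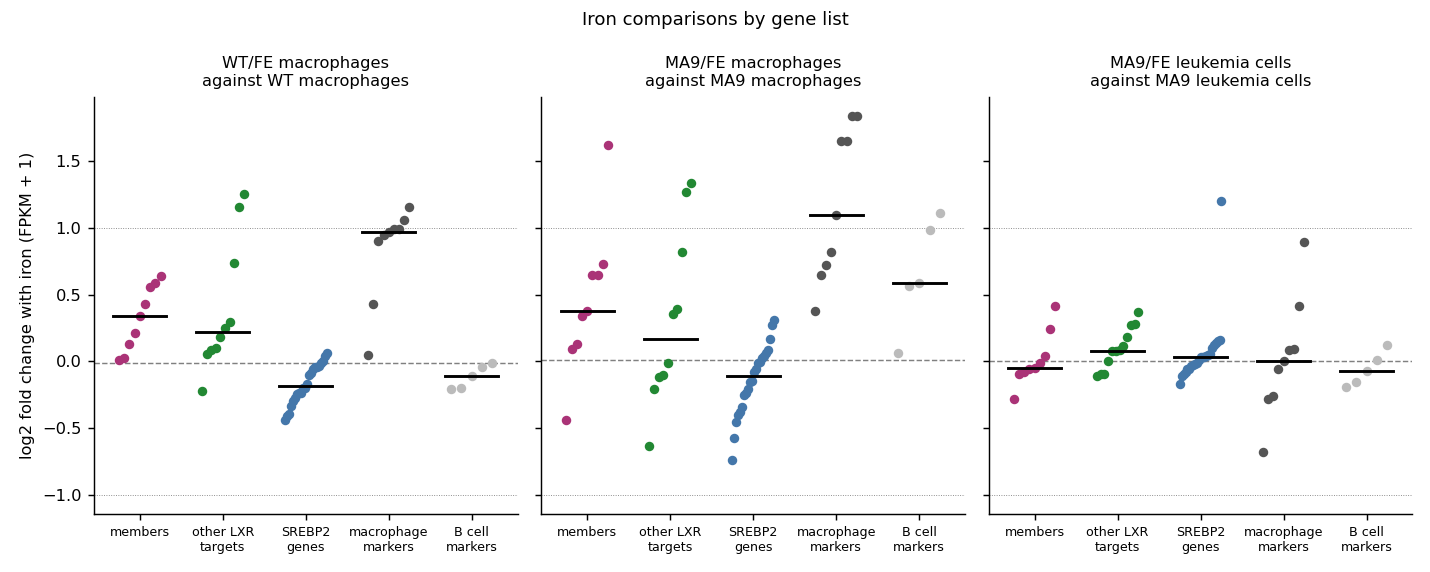
Log2 fold change with iron on the FPKM + 1 scale (vertical axis) for each gene of 5 lists in the 3 iron comparisons. Each point is a gene, solid bars are list medians, the dashed line is the median of all genes and dotted lines mark the fold of 2 (log2 values of -1 and 1). In macrophages the members' medians (0.34 and 0.38) lie between those of the SREBP2 genes (-0.18 and -0.11) and the macrophage markers (0.97 and 1.10), and in leukemia cells the members' median is -0.05.

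In leukemia cells the members' ratios of iron to PBS ran from 0.796 to 1.43. In MA9/FE against MA9 leukemia cells no member was called, where 0.383% of 15127 genes were called higher and 0.41% lower, and 3 of the 9 were higher. Lpl was 1.43 times higher with iron (1.29 to 1.58) and Apoe 1.19 times (1.09 to 1.30), while Abcg1 was lower, at a ratio of 0.796 (0.720 to 0.880). Npc2 (0.934, 0.903 to 0.966), Srebf1 (0.945, 0.895 to 0.998) and Abca7 (0.963, 0.930 to 0.996) were slightly lower. The intervals of Abca1 (0.971, 0.624 to 1.51), Nr1h3 (0.904, 0.499 to 1.63) and Mylip (1.03, 0.930 to 1.15) included 1, and with 43 and 24 reads a change under the width of those intervals was not detectable for Abca1 and Nr1h3. The 23 SREBP2 genes had a median of 0.03 in that comparison. Erythroid markers summed to 425 FPKM without and 161 FPKM with iron there, and their part in these values was not tested.

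Leukemia itself was addressed by MA9 against WT macrophages, and by the same contrast under iron. These comparisons share libraries with those of iron, so their values are given side by side. In MA9 against WT no member was called (3.81% of 16646 genes higher, 0.877% lower), 5 were higher and 4 lower. Mylip had the largest value, at a ratio of 0.587 (0.548 to 0.629), Apoe a ratio of 0.727 (0.703 to 0.753), and Nr1h3 one of 1.38 (1.20 to 1.58). In MA9/FE against WT/FE again no member was called (2.97% of 16265 genes higher and 1.62% lower, which is 483 and 263 genes, or 321 and 404 with the length trend removed), with 5 higher and 4 lower. Apoe had a ratio of 1.49 (1.46 to 1.53), and hence lay on the other side of 1 than without iron. Lpl (1.38 without and 1.58 with iron), Nr1h3 (1.38 and 1.42) and Npc2 (1.15 and 1.42) were higher in both, and Abca1 (0.831 and 0.697) and Mylip (0.587 and 0.788) lower in both. Removing the trend on exon length moved the log2 fold change of Abca1 under iron from -0.47 to -0.30. Abca7 went from a ratio of 0.978, with an interval that included 1, to 0.685 (0.653 to 0.718).

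Limma passed none of the 9 members for leukemia in the 4 macrophage libraries, where 5.6% of 15989 genes passed and 2812 had an unadjusted p under 0.05. Mylip (-0.53 ± 0.20, SE, limma adjusted p = 0.168) and Nr1h3 (0.45 ± 0.19, adjusted p = 0.222) were the 2 members with an unadjusted p under 0.05. The residual is that of the iron fit over the same libraries, so here too it is no spread of replicates. Of the SREBP2 genes, 19 of 22 were higher in MA9 than in WT (median 0.24) and 19 of 22 were higher in MA9/FE than in WT/FE (median 0.21), with none called. Abcg4, a transporter close to Abcg1 in sequence, was called in MA9 (0.0885 to 1.78 FPKM) and passed limma. Neutrophil markers were higher in MA9 by a median log2 fold change of 7.70, while the medians were -0.09 for macrophage and -0.76 for B cell markers. The medians of megakaryocyte (1.52), erythroid (1.37), plasma cell (1.09) and monocyte (0.94) markers were also above 0 in MA9 against WT. In MA9/FE against WT/FE they were 6.89 for neutrophil, 1.36 for erythroid, 1.25 for T cell, 1.01 for plasma cell, 0.94 for megakaryocyte, 0.58 for monocyte, 0.14 for macrophage and 0.06 for B cell markers. The part of these lists in the members' values was not tested.

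The largest differences lay between leukemia cells and macrophages of the same condition, where cell type and labelled tissue cannot be told apart. The labels do not say whether both came from the same animals. In MA9 mice Abca1, Abcg1, Apoe and Nr1h3 were called lower in leukemia cells and Lpl higher, with 12.8% of 16749 genes called lower and 7.4% higher. In MA9/FE mice Abca1, Abcg1, Apoe, Nr1h3 and Mylip were called lower, with 13.3% of 16537 genes called lower and 9.68% higher. Nr1h3 in leukemia cells had a ratio to macrophages of 0.0516 (0.0337 to 0.0760) in MA9 and 0.0279 (0.0177 to 0.0418) in MA9/FE mice. Abca1 had ratios of 0.0408 (0.0296 to 0.0550) and 0.0301 (0.0217 to 0.0407), and Apoe of 0.162 (0.151 to 0.173) and 0.0640 (0.0602 to 0.0680). Abcg1 was less reduced, at 0.2996 (0.277 to 0.323) and 0.229 (0.210 to 0.249). The LXRα gene, both classical exporters and Apoe were thus called lower in leukemia cells in both kinds of mice.

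The 4 members higher in leukemia cells than in macrophages were Lpl, Abca7, Npc2 and Srebf1, in both kinds of mice. Lpl had ratios of 2.96 (2.53 to 3.47) in MA9 and 2.11 (1.88 to 2.38) in MA9/FE mice, Abca7 of 1.49 (1.43 to 1.55) and 2.02 (1.93 to 2.11), Npc2 of 1.90 (1.83 to 1.98) and 1.44 (1.38 to 1.49), and Srebf1 of 1.33 (1.26 to 1.42) and 1.18 (1.11 to 1.25). In limma over these 4 libraries 8 of the 9 members passed, all but Srebf1 (0.33 ± 0.15, SE, limma adjusted p = 0.119), where 43.5% of 16042 genes passed. The log2 differences were -3.33 ± 0.24 for Nr1h3 (limma adjusted p = 4.33e-05), -2.63 ± 0.20 for Abca1 (5.15e-05), -3.24 ± 0.31 for Apoe (0.000165) and 0.95 ± 0.20 for Lpl (0.00671). The residual of this fit holds the interaction of iron with cell type and the difference between mice. It is no spread of replicates, so these p-values do not measure variation between mice of a condition. The pseudocount of 1 weighs on genes low in leukemia cells, and with 0.1 the log2 fold changes in MA9/FE mice moved from -2.81 to -4.55 for Abca1 and from -3.71 to -4.92 for Nr1h3, past that of Apoe (-3.92 to -3.96). Without a minimum of reads 4 of the 9 passed, Abca1, Abcg1, Apoe and Nr1h3.

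**Figure D4:**
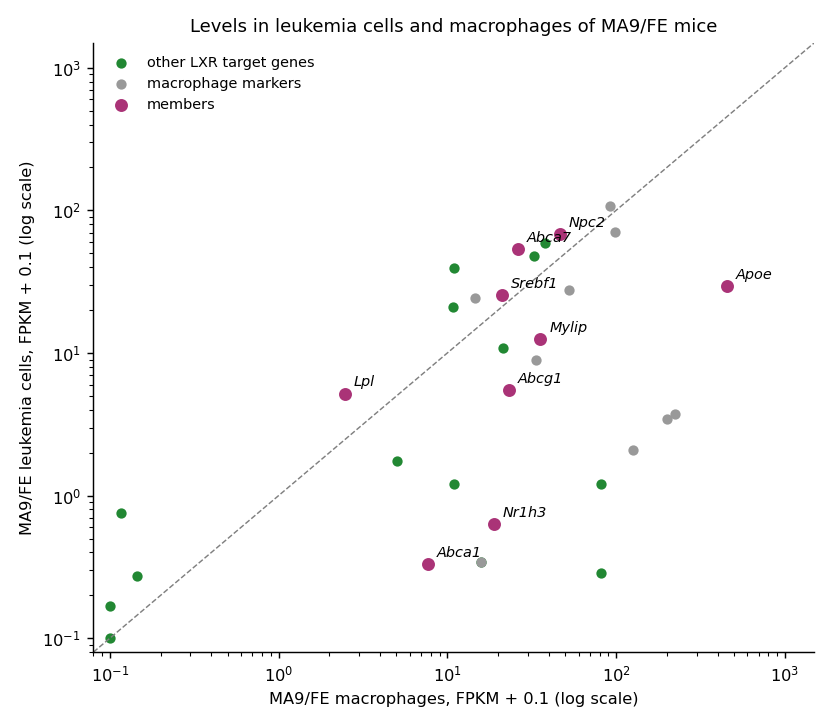
Levels in MA9/FE macrophages (horizontal axis) and MA9/FE leukemia cells (vertical axis), both as FPKM + 0.1 on log scales, for the 9 members, the other LXR target genes and the macrophage markers, with a dashed line of equal level. Apoe, Nr1h3, Abca1, Abcg1 and Mylip lie below the line, and Lpl, Abca7, Npc2 and Srebf1 above it.

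Pathway genes around the members differed between the cells in both directions. Of the 11 other LXR target genes tested, 5 passed limma as higher in leukemia cells (Lpcat3, Smpdl3a, Scd2, Fasn and Abcg8) and 5 as lower (Pltp, Arl4c, Scd1, Cd5l and Mertk). Over all genes, 43.5% of 16042 passed this fit. Abcg8 was at 0 FPKM in MA9 macrophages. Scd1 was at 64.8 and 81.2 FPKM in MA9 and MA9/FE macrophages and at 0.125 and 0.185 FPKM in leukemia cells. Fasn, which encodes fatty acid synthase, was at 18 and 10.94 FPKM in these macrophages and at 41.9 and 39.2 FPKM in leukemia cells. Of the 23 SREBP2 genes 9 passed as higher, Insig1 among them, and 3 as lower (Srebf2, Insig2 and Pmvk), beside the 43.5% over all genes.

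Cd36 and Olr1, both lipid uptake receptors, differed between the cell types in opposite directions. Cd36, a scavenger receptor for fatty acids and oxidized LDL, was at 28.1 and 25.5 FPKM in MA9 and MA9/FE macrophages and at 0.0921 and 0.0156 FPKM in leukemia cells, whereas Olr1, another receptor for oxidized LDL, was at 0.807 and 0.418 FPKM in macrophages and at 16.3 and 14.2 FPKM in leukemia cells. Cyp27a1, which makes the LXR ligand 27-hydroxycholesterol, was at 47.5 and 65.9 FPKM in macrophages and at 13.9 and 16.7 FPKM in leukemia cells. Among the other ABC transporters, Abca13 and Abca9 were called higher in leukemia cells in both kinds of mice, and Abcg3 lower. Plin2, a coat protein of lipid droplets, was at 13.55 and 12.96 FPKM in macrophages and at 31.5 and 30.8 FPKM in leukemia cells. The 5 partners of Lpl summed to between 16.9 and 26.9 FPKM in the 6 libraries, with Gpihbp1 and Apoc3 at 0 in each. Angptl4, an inhibitor of the lipase, was at 5.13 and 5.34 FPKM in leukemia cells against 1.67 and 2.31 FPKM in macrophages.

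Genes with the pattern most like that of each member were sought by Pearson's r on log2(FPKM + 1) over the 6 libraries, among 9953 genes with at least 5 FPKM in one library. This is a description, since the libraries fall into macrophages and leukemia cells and share depth and sorting. Abca1 was most like Errfi1 (r = 0.999), followed by Ptpn22 and E130102H24Rik, and Apoe was most like Ly96 (0.997), followed by Tmem128 and Arfip2. Nr1h3 was most like Kcnj10 (0.999), Igkv4-59 and Sdc3, of which Igkv4-59 is an immunoglobulin gene at 107 FPKM in WT and 455 FPKM in MA9/FE macrophages. Npc2 was most like Atg101 (0.999) and Cep19, with Grn, the gene of the lysosomal protein progranulin, next. Lpl was most like Ostm1 (0.991), Ntpcr and Igsf8, and Srebf1 like Ints13 (0.997), Cstf1 and Tusc1. Among the rest, Abca7 was most like Med13l (0.998), Tnrc18 and Arid1b, Abcg1 like Plaur (0.998), Sema4b and Cox6a2, and Mylip like Zfp788 (0.999), Akap8l and Sirpa.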

How the data were processed

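The authors deposited FPKM for 54532 genes in each of 6 libraries, 1 per condition, so no test between replicates is possible. Bowtie2 2.2.5, RSEM and mm10 stand in the submitters' processing notes, and their roles are not given in the sources used here. FPKM multiplied by union exon length (GENCODE M21, known for 54495 genes) gave whole reads, within 0.05, for 96.8% to 97.0% of values per library. These reads set filters and exact 95% counting intervals (Poisson for levels, binomial for ratios), which cover counting error only. Pairs of libraries were scaled by TMM, coded by hand, and compared on log2(FPKM + 1). A gene was called at a fold of at least 2 with at least 10 reads in one library. Additive fits used limma 3.58.1 (R 4.3.3, trend, Benjamini-Hochberg over all genes with at least 10 reads in 2 libraries, threshold 0.05). The fold between a pair of libraries and the limma fit for iron were tested on simulated reads, and the other steps were not.

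The members and gene lists were chosen with earlier results of these data known. All 9 members are named, with the 3 genes most like each and some of the list genes that reached a fold of 2 or passed limma. Scd1 and Nr1h2 in macrophages and Angptl4 were added as background to a member. Promoter sequences are from RefSeq. Alternatives were other scalings, pseudocounts and minimum reads, removal of the trend on exon length, and leaving out a pair. Some genes of the lists are counted but not reported here by name.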

Additional observations from a re-analysis of the deposited data

Results flagged for a closer look

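Apoe differed in sign between the leukemia contrasts of the macrophages. Its log2 fold change was -0.46 in MA9 against WT and 0.58 in MA9/FE against WT/FE, a difference of 1.03. Macrophage markers had medians of -0.09 and 0.14 in these comparisons. Iron differed in sign between MA9 macrophages and leukemia cells for Abcg1 (0.10 and -0.28, a difference of -0.38), Npc2 (0.34 and -0.10, a difference of -0.44) and Srebf1 (0.13 and -0.08, a difference of -0.21). With 1 library per condition none of these differences was tested, and the pairs of contrasts each rest on 4 libraries.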

How the results depend on the processing

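Of 63 log2 fold changes of the members, 62 kept their sign in every setting. The exception was Abcg1 in MA9 against WT macrophages (0.01, between -0.01 and 0.01). Of 376 values under other settings, 354 moved by less than their counting interval and 22 by more. The larger moves came with a pseudocount of 0.1 (Lpl in both macrophage iron comparisons, and Abca1, Abcg1, Lpl and Nr1h3 in leukemia cells against macrophages), with the length trend removed (mostly Abca1, Abcg1, Abca7 and Apoe in comparisons with MA9/FE macrophages) and once with median of ratios (Apoe). Lpl went from 0.43 to 0.75 in WT/FE and from 0.65 to 0.98 in MA9/FE macrophages, and in MA9 leukemia cells against macrophages Abca1 went from -2.46 to -4.13. Without a minimum of reads, limma passed 4 members between leukemia cells and macrophages in place of 8. For MA9/FE leukemia cells against MA9/FE macrophages, 5 members were called, 6 without further scaling (Abca7 added) and 7 with a pseudocount of 0.1 (Abca7 and Lpl added).

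Counts over all genes moved more. With a pseudocount of 0.1, the numbers higher and lower were 396 and 332 in WT/FE against WT, 1305 and 599 in MA9 against WT, 1031 and 957 in MA9/FE against WT/FE, 575 and 830 in MA9/FE against MA9 macrophages, 297 and 278 in leukemia cells with iron, 2090 and 3581 in MA9 leukemia cells against macrophages, and 2702 and 3644 in MA9/FE. Removing the trend on exon length changed the split in MA9/FE against MA9 macrophages from 189 higher and 200 lower to 114 and 294, and in MA9/FE against WT/FE from 483 and 263 to 321 and 404. Without a minimum of reads, limma passed 0 genes for iron and 1 for leukemia in place of 42 and 895 in macrophages, and with at least 50 reads 98 higher and 38 lower for iron. Leaving out the leukemia cell pair raised the genes passed for iron from 0 to 28 higher and 14 lower. The cause of these shifts was not tested.

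No leave-one-out fit was possible over 4 libraries, which leaves no residual. No paired analysis was possible because each condition has 1 library and nothing ties libraries to an animal. The fit over 6 libraries matches them by kind of cell only. Depth limits Abca1 and Nr1h3 in leukemia cells (24 to 45 reads).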
